A study of Saccharomyces cerevisiae with 9 samples.

Results

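The genes examined are the 30 of the ergosterol and mevalonate pathway of Saccharomyces cerevisiae, listed by name from acetoacetyl-CoA thiolase (ERG10) to the last reductase (ERG4), with 2 electron donors, 2 sterol acyltransferases and the regulators UPC2 and ECM22. They are 30 of the 6952 transcript entries counted, all 30 were found by systematic name, and all 30 passed the filter on low counts in every comparison. Ribosome footprints, the mRNA fragments that translating ribosomes protect from nuclease, were counted in 9 libraries of strain W303 (MATa) grown in YEPD at 30 °C, with 3 libraries each of the wild type (WT), of pbp1Δ, in which URA3 replaces PBP1, and of pab1Δpbp1Δ, in which kanMX also replaces PAB1. In the cytoplasm Pab1 coats the poly(A) tails of mRNA. It is essential unless its partner Pbp1 is missing too, so that pbp1Δ is the control for the loss of Pab1. Per the methods, the WT libraries are technical replicates of 1 strain, the pbp1Δ libraries are separate isolates, and the pab1Δpbp1Δ isolates derive from 1 pbp1Δ isolate. The spread among WT libraries is therefore not a spread between isolates. P-values and calls in the comparisons with WT do not take in variation between WT isolates and can overstate the evidence. By the study's account the pab1Δpbp1Δ cells also grew more slowly, and slow growth and loss of Pab1 cannot be told apart in these libraries.

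Ergosterol is the main sterol of yeast membranes and takes the place that cholesterol has in animals. Mevalonate enzymes build isoprenoid units from acetyl-CoA, prenyl synthases join them into farnesyl diphosphate, squalene synthase commits this to sterols, and a chain of enzymes in the endoplasmic reticulum trims, isomerizes and desaturates lanosterol into ergosterol. Farnesyl diphosphate also feeds ubiquinone, dolichol, heme A and protein prenylation. Several sterol steps use molecular oxygen and heme, and the zinc cluster factors Upc2 and Ecm22 activate transcription of ERG genes. A footprint count reflects both the amount of an mRNA and how densely ribosomes cover it, and these were not separated here.

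Libraries held 3149040 to 6903587 expected counts, and the shallowest was pab1Δpbp1Δ replicate 3. Normalized counts are counts divided by a size factor of each library, estimated over all 9. Those of PAB1 were 4565 to 5644 in the 6 libraries that carry the gene and at most 2.9 in the 3 pab1Δpbp1Δ libraries, and those of PBP1 were 778 to 813 in WT and at most 3.3 in the other 6. No pathway transcript has an unspliced entry, so none of the counts was divided with a precursor form. Reads that fit both members of a paralogous pair are divided by estimation, and their number was not examined.

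The pathway took a larger share of all footprints in pab1Δpbp1Δ than in pbp1Δ, and in pbp1Δ than in WT. The 30 genes held 1.60%, 1.499% and 1.48% of the expected counts in the WT libraries, 1.73%, 1.80% and 1.70% in pbp1Δ and 2.03%, 2.11% and 2.04% in pab1Δpbp1Δ, with means of 1.52 ± 0.0638%, 1.74 ± 0.0502% and 2.06 ± 0.0431% (SD, n = 3). The ranges of the 3 strains did not overlap. Counting error is small beside this spread, with a 95% Wilson interval of 2.02% to 2.05% for the shallowest library. Of the pathway's steps, the lanosterol-to-ergosterol enzymes held the largest share, with means of 0.704 ± 0.0442% for WT, 0.838 ± 0.0369% for pbp1Δ and 1.01 ± 0.0481% for pab1Δpbp1Δ (SD, n = 3). Mevalonate enzymes held 0.386 ± 0.00708%, 0.424 ± 0.0381% and 0.504 ± 0.0642% in the same order. From pbp1Δ to pab1Δpbp1Δ the gain was uneven, since ERG2 added 0.0737 percentage points, MVD1 0.0629 and ERG9 0.0558, whereas ERG20, ERG13 and HMG1 dropped by 0.0151, 0.0145 and 0.0110. These are shares of library totals and are given as a description, without a test. The larger share in pab1Δpbp1Δ than in pbp1Δ did not stand for a rise throughout the pathway. Scaled by size factors, 14 of the 30 genes were higher and 16 lower, and their median log2 fold change was -0.09. Scaled by library totals, the 30 genes had a median of 0.03, below the 0.15 of all entries tested.

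**Figure D1:**
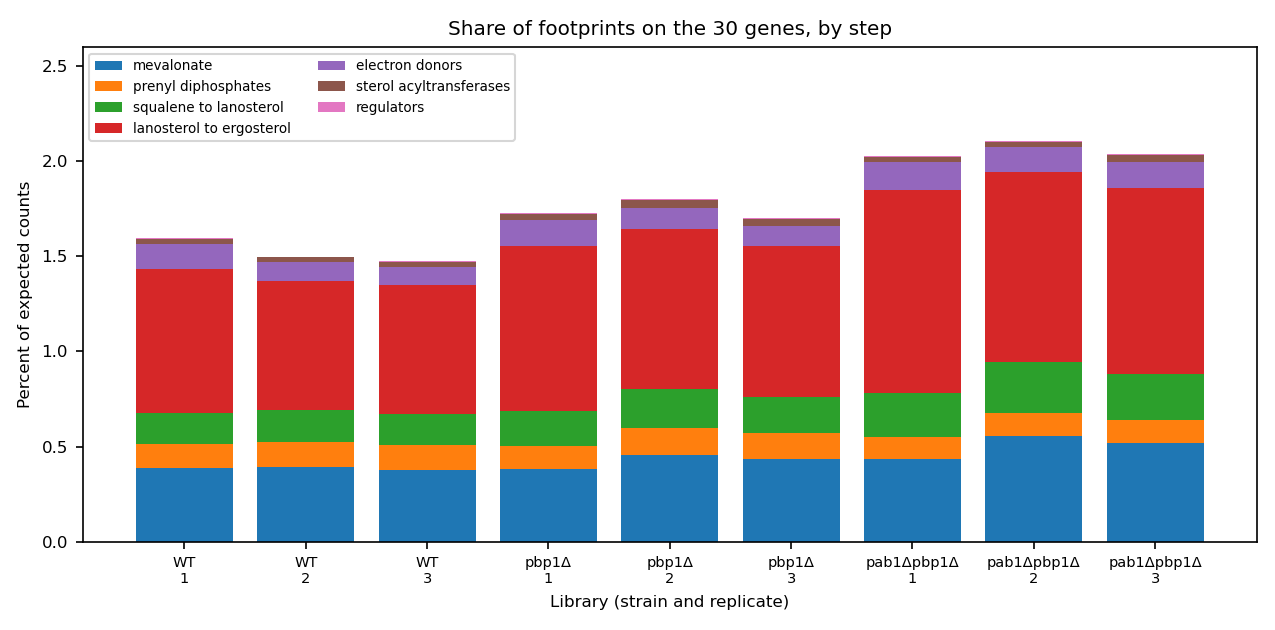
Share of all expected counts that fell on the 30 pathway genes, in percent, stacked by pathway step for each of the 9 libraries (strain and replicate number below each bar). The 3 pab1Δpbp1Δ bars reach 2.03% to 2.11%, above the pbp1Δ bars at 1.70% to 1.80% and the WT bars at 1.48% to 1.60%.

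Levels were next set side by side per transcript length, as FPKM, which divides fragments by transcript length and by the depth of the library. That length exceeds the coding region by a gene-specific amount, with 843 nt against 363 nt coding for CYB5 and 771 nt against 669 nt for ERG2. The order below is thus per transcript length, and an order per coding length was not examined. In WT, ERG25 stood highest with 1151 ± 65.3 FPKM (SD, n = 3), followed by ERG13 with 1065 ± 34.5, ERG3 with 951 ± 115 and ERG2 with 933 ± 146. The WT libraries of ERG25 and ERG13 overlapped, and so did those of ERG3 and ERG2. At the other end, BTS1 stood at 12.0 ± 1.75 FPKM, UPC2 at 6.72 ± 0.342 and ECM22 at 6.43 ± 0.897, and the libraries of the regulators overlapped. In pab1Δpbp1Δ, ERG2 stood at 2197 ± 167 FPKM (SD, n = 3) and ERG25 at 1552 ± 60.5.

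In the comparison of pab1Δpbp1Δ with pbp1Δ, which addresses the loss of Pab1, 8 of the 30 genes were called at an adjusted p below 0.01, 6 higher (ERG12, MVD1, ERG9, ERG28, ERG2 and CYB5) and 2 lower (HMG1 and HMG2). Adjusted p-values are from DESeq2 unless another tool is named, and were adjusted over all entries tested. Of all 5772 entries tested, 21.3% were called, 11.1% higher and 10.2% lower, so that the called share of the pathway, 26.7%, was near that of all genes. The median log2 fold change of the 30 genes was -0.09 and that of all entries 0.03. Libraries of the strains did not overlap for 14 of the 30 genes, 10 above and 4 below, against 45.9% of all entries, 23.8% above and 22.0% below. An unadjusted p below 0.05 was found for 15 of the 30, against 39.3% of all entries. The edgeR test called 3 of the 30 (ERG12, ERG9 and ERG28), against 16.4% of its entries, and limma on log2(FPKM + 1) called 4, against 14.7%.

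Loss of Pbp1 alone gave no call among the 30 genes in pbp1Δ against WT, where 1.21% of 5638 entries were called, 0.337% higher and 0.869% lower. The values leaned one way: 28 of 30 log2 fold changes were above 0, with a median of 0.22 against 0.00 for all entries and a range from -0.03 (IDI1) to 0.45 (ARE2). All 3 pbp1Δ libraries lay above all 3 WT libraries for 15 of the 30 genes and below for 0, against 11.9% and 11.4% of all entries. By DESeq2, 12 of the 30 genes had an unadjusted p below 0.05, against 12.7% of all entries, and limma on FPKM and edgeR also called 0, edgeR calling 0.0192% of its entries. With the replicate number as a block, ERG2 was called (log2 fold change 0.40, adjusted p = 0.000682), 1 of 30 against 2.71% of entries in that fit. The data bear out this pairing only in part. The deviations of pbp1Δ replicate 2 from its strain mean followed WT replicate 3 (r = 0.267) more than WT replicate 2 (0.165). Without pbp1Δ replicate 1, ARE2 (0.58, adjusted p = 0.000506) and ERG27 (0.42, adjusted p = 0.00293) were called.

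The comparison of pab1Δpbp1Δ with WT, which differ in both genes, gave 11 calls among the 30 genes, all higher: ERG10, ERG12, MVD1, ERG9, ERG24, ERG26, ERG27, ERG28, ERG2, ERG4 and CYB5. Of 5880 entries tested, 30.9% were called, 15.7% higher and 15.3% lower. The median log2 fold change was 0.11 over the 30 genes and 0.05 over all entries, and the range was -0.44 (HMG1) to 1.13 (ERG2). Libraries of the strains did not overlap for 19 of the 30 genes, 15 above and 4 below, against 55.1% of all entries, 29.1% above and 26.0% below. An unadjusted p below 0.05 was found for 16 of the 30, against 46.8% of all entries. The edgeR test called 9 of the 30, against 31.9% of its entries. This comparison shares libraries with each of the other 2 and is no independent evidence for either.

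Scaling by library totals in place of size factors raised the median of all entries by 0.12 (log2) in pab1Δpbp1Δ against pbp1Δ and by 0.13 against WT. The share of higher among all calls then went from 52.0% to 64.7% and from 50.7% to 61.2%, and with limma on log2(FPKM + 1) to 72.1% and 62.9%.

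**Figure D2:**
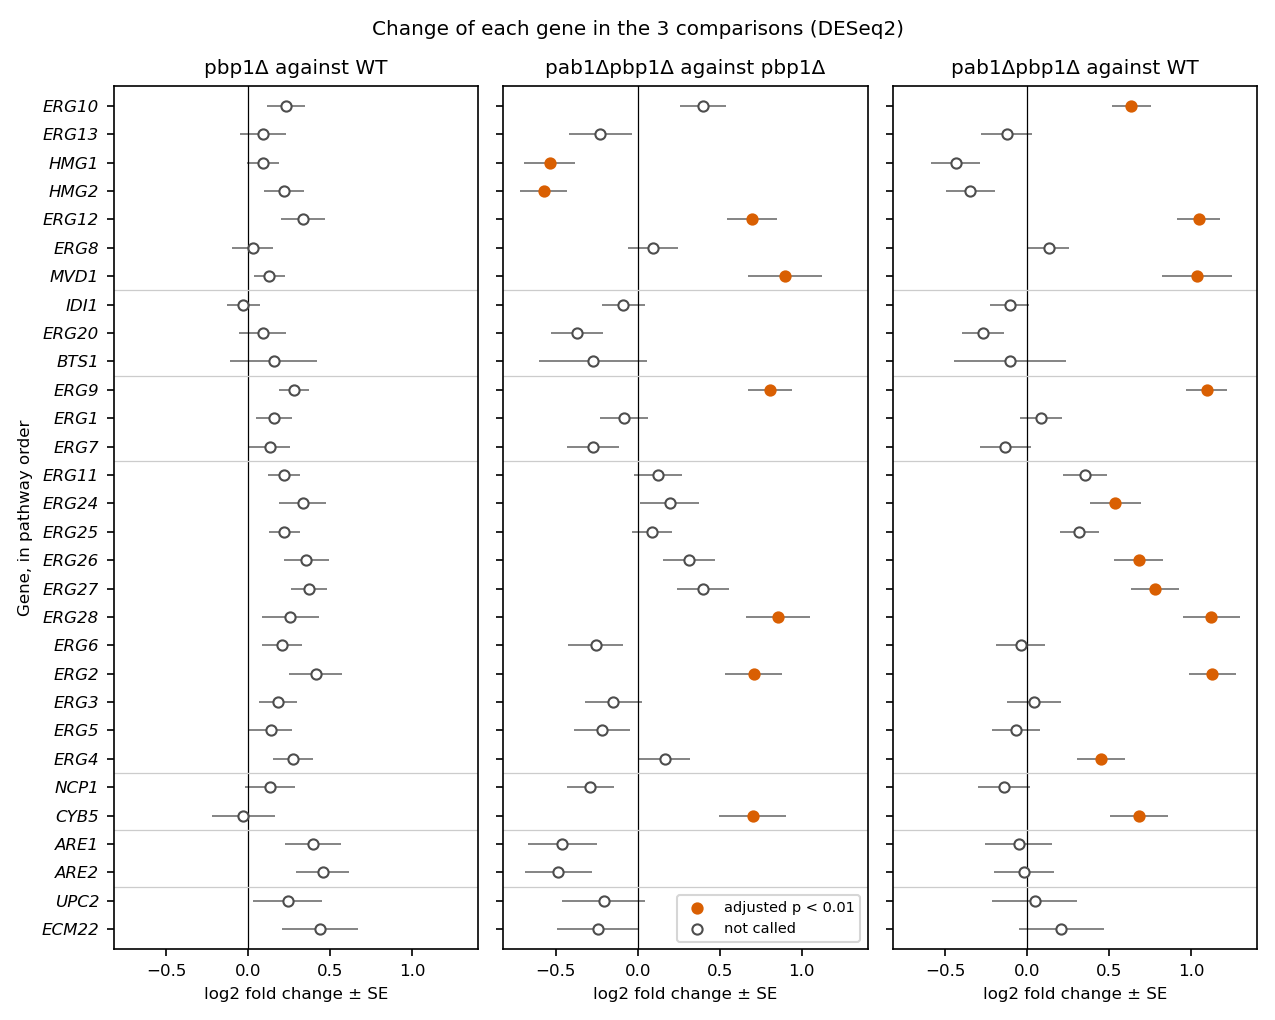
Log2 fold change of each of the 30 genes in pathway order in the 3 comparisons, as points with the DESeq2 standard error as bars, with filled points for an adjusted p below 0.01 and open points for the rest. Calls number 0 in pbp1Δ against WT, 8 in pab1Δpbp1Δ against pbp1Δ and 11 in pab1Δpbp1Δ against WT.

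The plot of log2 fold changes shows the steps side by side, and differences between steps were not tested. Calls in opposite directions occurred within the mevalonate enzymes, where 2 of 7 rose and 2 of 7 fell in pab1Δpbp1Δ against pbp1Δ and 3 did not pass the test. Of all entries, 11.1% were called higher and 10.2% lower in that comparison. The edgeR test called 1 of the 7, against 16.4% of its entries. ERG12, mevalonate kinase (chrXIII:684467-685798, Watson strand, coding region in RefSeq R64, as for all positions given), had 834, 959.7 and 946 normalized counts in the WT libraries, 1314, 1086 and 1064 in pbp1Δ and 1935, 1839 and 1903 in pab1Δpbp1Δ. Every pab1Δpbp1Δ library lay above every other library. ERG12 thus rose 1.62-fold over pbp1Δ (log2 fold change 0.70, SE 0.15, adjusted p = 4.47e-05) and 2.06-fold over WT (adjusted p = 5.99e-14), and the call over pbp1Δ held in 17 of 17 alternative settings, which used another tool, scaling, filter or table or left out 1 library.

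MVD1, the decarboxylase that yields isopentenyl diphosphate (chrXIV:701895-703085, Watson strand), had 3044, 3004 and 3191 normalized counts in WT, 3372, 3548 and 3200.3 in pbp1Δ and 4141, 7715 and 7175 in pab1Δpbp1Δ. The first pab1Δpbp1Δ library lay far below the other 2 and still above every pbp1Δ library. MVD1 rose 1.86-fold over pbp1Δ (log2 fold change 0.90, SE 0.23, adjusted p = 0.000565) and 2.05-fold over WT (adjusted p = 7.50e-06). Its call over pbp1Δ held in 11 of 17 alternatives and was lost without pab1Δpbp1Δ replicate 2 (adjusted p = 0.0120), without pab1Δpbp1Δ replicate 3 (0.0130), without pbp1Δ replicate 3 (0.0151), by edgeR (0.0132) and by limma.

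HMG1 and HMG2 encode the paralogous HMG-CoA reductases, the rate-controlling and sterol-regulated step. HMG1 (chrXIII:115734-118898, Crick strand) had 2347, 2087 and 2242 normalized counts in WT, 2422, 2423 and 2272 in pbp1Δ and 1789.8, 1404 and 1768 in pab1Δpbp1Δ. HMG2 (chrXII:1032627-1035764, Watson strand) had 800.4, 678 and 765 in WT, 829, 906 and 874 in pbp1Δ and 596, 604 and 571 in pab1Δpbp1Δ. For both genes the pab1Δpbp1Δ libraries lay below all 6 others. HMG1 fell in pab1Δpbp1Δ against pbp1Δ (log2 fold change -0.54, SE 0.16, adjusted p = 0.00341), and so did HMG2 (log2 fold change -0.57, SE 0.14, adjusted p = 0.000586), each to about the same fraction, 0.69 and 0.67 of the pbp1Δ level. Against WT neither passed the test (log2 fold change -0.44, adjusted p = 0.0108 for HMG1, and -0.35, adjusted p = 0.0490 for HMG2), although HMG1 was called lower there in 5 of 17 alternatives, one of them without pab1Δpbp1Δ replicate 1 (adjusted p = 0.00449). Against pbp1Δ, HMG1 was called in 9 of 17 alternatives and HMG2 in 12 of 17. Neither was called by edgeR (adjusted p = 0.0309 and 0.0148) or by limma on FPKM. HMG1 was lost under scaling by library totals (0.0257), without any 1 of the pbp1Δ libraries (adjusted p = 0.0149, 0.0391 and 0.0201 without replicates 1, 2 and 3) or without pab1Δpbp1Δ replicate 2 (0.0158). HMG2 was lost without pbp1Δ replicate 2 (0.0167) or 3 (0.0118).

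The other mevalonate enzymes did not pass the test against pbp1Δ. ERG10, the thiolase that opens the pathway, had 2727, 2945 and 3032 normalized counts in WT, 3059, 3737 and 3420.1 in pbp1Δ and 4399, 4388 and 4793 in pab1Δpbp1Δ, with no overlap between any of the strains. It rose 1.55-fold over WT (log2 fold change 0.64, SE 0.12, adjusted p = 1.22e-06) and had a log2 fold change of 0.40 over pbp1Δ (adjusted p = 0.0205), with a call when all 9 libraries shared 1 fit (adjusted p = 0.00119) or library totals set the scale (0.00175). ERG13, HMG-CoA synthase and one of the most abundant of the 30 per length, ranged from 7622 to 11944 normalized counts over the 6 mutant libraries, and the strains overlapped (log2 fold change -0.23 against pbp1Δ, SE 0.19). ERG8, phosphomevalonate kinase, stayed between 1178 and 1516 in all 9 libraries (log2 fold change 0.09, SE 0.15). So of the consecutive enzymes Erg12, Erg8 and Mvd1, the outer ones were called and the middle one was not. Whether ERG8 differs from its neighbours in its change was not tested.

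Of the 3 prenyl diphosphate genes, 0 were called in any comparison by DESeq2 or edgeR. The DESeq2 shares of all entries were 21.3% against pbp1Δ, 1.21% for pbp1Δ against WT and 30.9% for pab1Δpbp1Δ against WT. Those of edgeR were 16.4%, 0.0192% and 31.9%. Against pbp1Δ, 1 of the 3 (ERG20) had an unadjusted p below 0.05, beside 39.3% of all entries. IDI1, isopentenyl diphosphate isomerase, lay between 1944 and 2207 normalized counts in all 9 libraries, with a log2 fold change of -0.09 (SE 0.13) against pbp1Δ that turned to 0.03 under scaling by library totals. ERG20, farnesyl diphosphate synthase, at the branch point to sterols, ubiquinone, dolichol and prenylated proteins, had 4315, 4954 and 5205 normalized counts in WT, 4234, 5706 and 5464 in pbp1Δ and 4092, 3997 and 3960.4 in pab1Δpbp1Δ. The pab1Δpbp1Δ libraries lay below all the others (log2 fold change -0.37 against pbp1Δ, adjusted p = 0.0617), and without pbp1Δ replicate 1, the lowest of its strain, ERG20 was called lower (-0.49, adjusted p = 0.00114). BTS1, geranylgeranyl diphosphate synthase, had 56.4 to 95.4 normalized counts and overlapped between all strains (log2 fold change -0.27 against pbp1Δ, SE 0.33).

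Of the 3 genes from squalene to lanosterol, ERG9 alone was called. It was higher in pab1Δpbp1Δ against pbp1Δ and against WT, beside 11.1% and 15.7% of all entries called higher. ERG9 encodes squalene synthase, the first enzyme committed to sterols (chrVIII:484845-486179, Watson strand), and had 2843, 2708 and 2886 normalized counts in WT, 3573, 3429.5 and 3245 in pbp1Δ and 5623, 6570.1 and 5877 in pab1Δpbp1Δ. The 3 strains formed 3 separate steps without overlap. ERG9 rose 1.75-fold over pbp1Δ (log2 fold change 0.80, SE 0.14, adjusted p = 6.27e-08), with the lowest adjusted p of the 30 genes in that comparison, and 2.13-fold over WT (adjusted p = 6.94e-17), and its call over pbp1Δ held in 17 of 17 alternatives. In pbp1Δ against WT its log2 fold change was 0.28 (SE 0.09, adjusted p = 0.0855). ERG1, squalene epoxidase and the target of terbinafine, had 5537, 6604 and 5701 normalized counts in pbp1Δ and 5262, 6251 and 5484 in pab1Δpbp1Δ (log2 fold change -0.08, SE 0.15, or 0.03 under scaling by library totals). ERG7, lanosterol synthase, had 949, 1033 and 1106 in pbp1Δ and 786, 836 and 959 in pab1Δpbp1Δ (log2 fold change -0.27, SE 0.16). Both genes overlapped between the mutants.

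**Figure D3:**
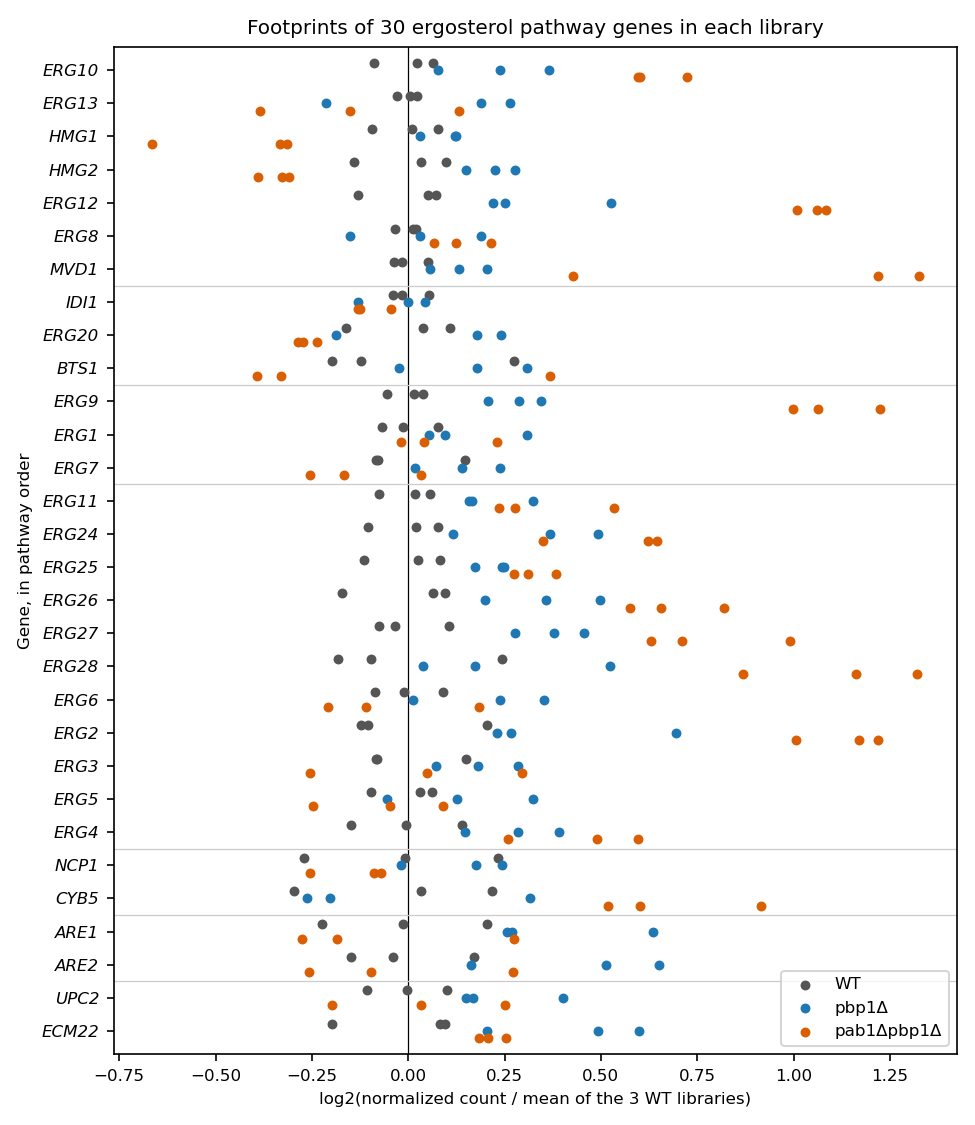
Each point is 1 library: log2 of its normalized count over the mean of the 3 WT libraries, for the 30 genes in pathway order, with WT in grey, pbp1Δ in blue and pab1Δpbp1Δ in orange. For ERG10, ERG12, MVD1, ERG9, ERG25, ERG26, ERG27, ERG28, ERG2 and CYB5 all orange points stand to the right of all others, and for HMG1, HMG2 and ERG20 to the left.

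The plot of single libraries goes on with the 11 enzymes from lanosterol to ergosterol. Against pbp1Δ, 2 rose (ERG28 and ERG2) and 9 did not pass the test, beside 11.1% of all entries called higher. For pab1Δpbp1Δ against WT, 6 rose and 5 did not pass, beside 15.7% of all entries called higher. ERG28 (chrV:237570-238016, Crick strand) encodes a membrane scaffold that holds the sterol demethylation enzymes together. It had 1437, 1134 and 1069.5 normalized counts in WT, 1746, 1367 and 1246 in pbp1Δ and 3030.2, 2714 and 2216 in pab1Δpbp1Δ. WT and pbp1Δ overlapped, and all pab1Δpbp1Δ libraries lay above both. ERG28 rose 1.81-fold over pbp1Δ (log2 fold change 0.85, SE 0.19, adjusted p = 8.91e-05; called in 17 of 17 alternatives) and 2.18-fold over WT (adjusted p = 3.10e-09).

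ERG2, the sterol isomerase (chrXIII:667537-668205, Watson strand), had 4525, 3658 and 3607 normalized counts in WT, 6368, 4724 and 4609 in pbp1Δ and 7893, 8837 and 9149.7 in pab1Δpbp1Δ. Its libraries again formed 3 steps without overlap, and replicate 1 was the highest of its strain in WT and pbp1Δ but the lowest in pab1Δpbp1Δ. ERG2 rose 1.63-fold over pbp1Δ (log2 fold change 0.71, SE 0.17, adjusted p = 0.000377) and 2.19-fold over WT (adjusted p = 1.56e-13), the highest log2 fold change of the 30 against WT. The call over pbp1Δ held in 14 of 17 alternatives and was lost without pbp1Δ replicate 2 (adjusted p = 0.0160) or 3 (0.0155) and by edgeR (0.0111).

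The sterol demethylation enzymes that ERG28 scaffolds were ERG25, ERG26 and ERG27, an oxidase, a decarboxylating dehydrogenase and a ketoreductase. All 3 had every pab1Δpbp1Δ library above every pbp1Δ library and every pbp1Δ library above every WT library. Of all entries, 23.8% had the first order and 11.9% the second, and the share with both was not counted. ERG10, ERG12, MVD1, ERG9 and ERG2 had the same order, so it is not particular to these enzymes. ERG27 had 1354, 1394 and 1536 normalized counts in WT, 1732, 1855 and 1959.8 in pbp1Δ and 2337, 2210.4 and 2839.7 in pab1Δpbp1Δ, and ERG26 had 677, 815 and 797 in WT, 876, 977 and 1078 in pbp1Δ and 1138, 1202 and 1346 in pab1Δpbp1Δ. In pab1Δpbp1Δ over WT, ERG27 rose 1.72-fold (adjusted p = 1.47e-06) and ERG26 1.60-fold (adjusted p = 4.20e-05). Against pbp1Δ their log2 fold changes were 0.40 (adjusted p = 0.0382) and 0.31 (adjusted p = 0.119), and ERG27 was called with all 9 libraries in 1 fit (adjusted p = 0.00603) and under library totals (0.00571). ERG25 had 8265, 7499 and 8592 in WT, 9614, 9649 and 9155 in pbp1Δ and 10594, 10076 and 9819 in pab1Δpbp1Δ, with log2 fold changes of 0.32 against WT (adjusted p = 0.0216) and 0.09 against pbp1Δ (adjusted p = 0.641).

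ERG24, the sterol reductase that follows Erg11, and ERG4, the last reductase of the pathway, were called higher against WT by a narrow margin. ERG24 had 646, 592 and 671 normalized counts in WT, 896, 821 and 689.7 in pbp1Δ and 979, 811 and 994 in pab1Δpbp1Δ (log2 fold change 0.54, SE 0.16, adjusted p = 0.00224 against WT). ERG4 had 3205, 2627 and 2900.5 in WT, 3818, 3544 and 3222 in pbp1Δ and 4402, 3484 and 4086 in pab1Δpbp1Δ (log2 fold change 0.45, SE 0.15, adjusted p = 0.00812 against WT). Both overlapped between the mutants, with log2 fold changes against pbp1Δ of 0.19 and 0.16. Against WT, ERG24 was called in 12 of 17 alternatives and ERG4 in 8 of 17. The ERG24 call was lost by edgeR (adjusted p = 0.01004), without WT replicate 1 (0.0147) or 2 (0.0391) or without pab1Δpbp1Δ replicate 1 (0.0112) or 3 (0.0135). The ERG4 call was lost by edgeR (0.0242) and limma, in the gene table (0.0108), with size factors that left out ribosomal protein transcripts (0.0120), without WT replicate 2 (0.0961) or 3 (0.0502) or without pab1Δpbp1Δ replicate 1 (0.0390) or 3 (0.0293).

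The 5 enzymes that use molecular oxygen (ERG1, ERG11, ERG25, ERG3 and ERG5) gave 0 calls in any of the 3 comparisons by DESeq2 or edgeR. DESeq2 called 21.3% of all entries against pbp1Δ, 1.21% for pbp1Δ against WT and 30.9% for pab1Δpbp1Δ against WT. The edgeR shares were 16.4%, 0.0192% and 31.9%. An unadjusted p below 0.05 was found for 0 of the 5 against pbp1Δ and for 2 (ERG11 and ERG25) in each comparison with WT. The shares of all entries at that level were 39.3% against pbp1Δ, 12.7% for pbp1Δ and 46.8% for pab1Δpbp1Δ against WT. Log2 fold changes of the 5 enzymes lay between -0.22 and 0.12 for pab1Δpbp1Δ against pbp1Δ, and between -0.07 and 0.35 against WT. ERG11, the lanosterol demethylase that azole antifungals inhibit, had 7024, 6583 and 7212 normalized counts in WT, 7786, 8686 and 7743 in pbp1Δ and 10055, 8166 and 8416 in pab1Δpbp1Δ, all mutant libraries being above WT (log2 fold change 0.35, adjusted p = 0.0251 against WT, and 0.00871 without pab1Δpbp1Δ replicate 2). The desaturases ERG3 and ERG5 overlapped between all strains and had log2 fold changes of -0.15 (SE 0.18) and -0.22 (SE 0.17) against pbp1Δ. ERG25 and ERG11 were called against WT when all 9 libraries shared 1 fit (adjusted p = 0.00159 and 0.00692) or when library totals set the scale. ERG6, the sterol methyltransferase that marks fungal sterols, uses no oxygen and had 4183, 5297 and 4895 normalized counts in pbp1Δ and 3845, 4707 and 3592 in pab1Δpbp1Δ (log2 fold change -0.26, SE 0.17).

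Of the 2 electron donors, CYB5 was called and NCP1 was not, and the difference between them was not tested. Of all entries, 11.1% were called higher in pab1Δpbp1Δ against pbp1Δ and 15.7% against WT. CYB5 (chrXIV:416940-417302, Crick strand), a small heme protein that passes electrons to sterol and lipid enzymes, had 2766, 2434 and 1936 normalized counts in WT, 2961, 1983 and 2067 in pbp1Δ and 4489, 3408 and 3609 in pab1Δpbp1Δ. Replicate 1 was the highest of each strain, and the pab1Δpbp1Δ libraries lay above all others. CYB5 rose 1.62-fold over pbp1Δ (log2 fold change 0.70, SE 0.20, adjusted p = 0.00332), a call held in 10 of 17 alternatives and lost without pbp1Δ replicate 2 (adjusted p = 0.0561) or 3 (0.0544), without pab1Δpbp1Δ replicate 1 (0.0362) or 3 (0.0115), by edgeR (0.0236) and by limma. It rose 1.61-fold over WT (adjusted p = 0.000534, or 0.0133 without WT replicate 3). NCP1, the reductase that donates electrons to Erg11 and other oxygen-using steps, had 4216, 4020.2 and 3516 in pbp1Δ and 2986, 3390.1 and 3348 in pab1Δpbp1Δ, without overlap (log2 fold change -0.29, adjusted p = 0.119).

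The 2 sterol acyltransferases and the 2 regulators gave 0 calls in any comparison by DESeq2 or edgeR. Of all entries, DESeq2 called 21.3% against pbp1Δ, 1.21% in pbp1Δ against WT and 30.9% in pab1Δpbp1Δ against WT. The edgeR shares were 16.4%, 0.0192% and 31.9%. Among so few genes, 0 calls do not set them apart from all entries. Both acyltransferases had an unadjusted p below 0.05 against pbp1Δ and in pbp1Δ against WT, and neither regulator in any comparison. ARE1 had 618, 459 and 531 normalized counts in WT, 833, 640.3 and 646 in pbp1Δ and 443, 471 and 648 in pab1Δpbp1Δ, and ARE2, the more abundant of these storage enzymes that esterify sterols, had 953, 884 and 1102 in WT, 1096, 1538 and 1398 in pbp1Δ and 916, 819.6 and 1182 in pab1Δpbp1Δ. In both, pbp1Δ had the highest mean of the 3 strains, with log2 fold changes of 0.40 and 0.45 over WT (adjusted p = 0.267 and 0.126) and, for pab1Δpbp1Δ against pbp1Δ, -0.46 and -0.48 (adjusted p = 0.0843 and 0.0546). The ARE1 reading frame overlaps an annotated neighbour, YCR050C, by 298 nt on the opposite strand, and whether the counting used strand is not given in the sources used here. UPC2 had 109, 102 and 117 normalized counts in WT, 123, 121 and 145 in pbp1Δ and 112, 130.1 and 95.4 in pab1Δpbp1Δ, and ECM22 had 100.3, 99.5 and 81.9 in WT, 142, 108 and 132 in pbp1Δ and 112, 107 and 108 in pab1Δpbp1Δ. At about 100 counts a library their standard errors were 0.25 and 0.25 against pbp1Δ, among the widest of the 30, around log2 fold changes of -0.21 and -0.24.

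Balance within the 3 paralogous pairs was compared as a ratio of counts per length within each library, which no scaling between libraries can move. HMG1 exceeded HMG2 2.92-, 3.06- and 2.92-fold in the WT libraries, 2.91-, 2.66- and 2.59-fold in pbp1Δ and 2.99-, 2.32- and 3.08-fold in pab1Δpbp1Δ. The mean log2 ratios were 1.57 ± 0.0394, 1.44 ± 0.0885 and 1.47 ± 0.227 (SD, n = 3), and pbp1Δ lay below WT in all libraries (difference -0.13, exact two-sided permutation p = 0.1, the smallest that 3 against 3 allows, adjusted p = 0.9 over 9 ratios). The ARE1:ARE2 ratio averaged -0.81 ± 0.222, -0.86 ± 0.464 and -0.84 ± 0.128 on the log2 scale, and UPC2:ECM22 0.07 ± 0.259, -0.12 ± 0.211 and -0.12 ± 0.236. Neither of these differed beyond the spread between libraries (exact two-sided permutation p between 0.4 and 1). Of the 9 ratios, 0 could pass the test, since the design cannot go below 0.1.

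Called genes differed in transcript length. The effective transcript lengths of the 6 called higher in pab1Δpbp1Δ against pbp1Δ were 663 nt (ERG28), 771 nt (ERG2), 843 nt (CYB5), 1355 nt (MVD1), 1443 nt (ERG9) and 1458 nt (ERG12), and those of the 2 called lower were 3355 nt (HMG1) and 3339 nt (HMG2), the longest of the 30. Across the 30 genes the log2 fold change and the log2 length had a Pearson r of -0.68 and a Spearman rho of -0.60. Over 5516 spliced or intronless entries the values were -0.23 and -0.30. In pbp1Δ against WT they were 0.09 and 0.07 over the 30 genes and -0.24 and -0.37 over all. These correlations are across genes of the same libraries, which are not independent replicates, and describe the data without a test. The part of transcript length in the calls was not tested.

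**Figure D4:**
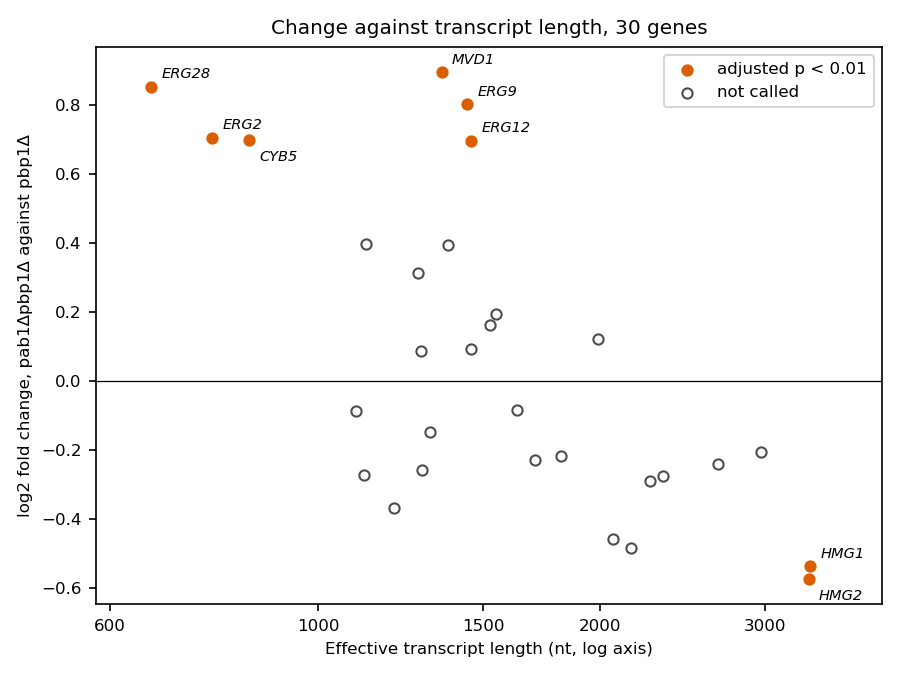
Log2 fold change of pab1Δpbp1Δ against pbp1Δ (vertical axis) against effective transcript length in nt (horizontal log axis) for the 30 genes, with filled points for an adjusted p below 0.01. The 3 shortest transcripts (663 to 843 nt) are called higher and the 2 longest (3339 and 3355 nt) lower.

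The plot of change by length also shows short transcripts that were not called, such as IDI1, BTS1, ERG27 and ERG20 between 1097 and 1204 nt, whose log2 fold changes ran from -0.37 to 0.40.

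In addition, 7 lists of 75 genes around the pathway were counted in the same fits. They were chosen with earlier results of these data known, so their counts beside all entries are a description. In words of function the lists were sterol import and anaerobic mannoproteins, other transcription factors of sterol genes, degradation of sterol enzymes at the endoplasmic reticulum, isoprenoid branches, heme synthesis, steryl ester and sterol transport, and accessory proteins. In pab1Δpbp1Δ against pbp1Δ, where 11.1% of all entries were called higher, 1 of 8 import and mannoprotein genes rose. It was PDR11, a transporter that takes up sterol when oxygen is lacking, with 23.4, 31.7 and 26.9 normalized counts in WT, 27.0, 22.3 and 25.7 in pbp1Δ and 84.2, 80.9 and 74.4 in pab1Δpbp1Δ (log2 fold change 1.67, SE 0.35, adjusted p = 1.77e-05). All its pab1Δpbp1Δ libraries lay above the other 6. DAN4, a cell wall mannoprotein of anaerobic cells, was listed at 0 in all WT and pbp1Δ libraries and at 0.925, 5.88 and 14.6 normalized counts in pab1Δpbp1Δ (adjusted p = 0.0172, no fold being given against 0), and TIR2 was lowest of the list (log2 fold change -0.40, SE 0.78).

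Heme, which Erg11, Erg5 and Cyb5 carry, is made by 8 enzymes, of which 2 fell and 1 rose, beside 10.2% and 11.1% of all entries. HEM15, ferrochelatase, which inserts the iron, had 917, 1237 and 1348 normalized counts in pbp1Δ and 463, 508 and 395 in pab1Δpbp1Δ (log2 fold change -1.37, SE 0.20, adjusted p = 3.29e-10). HEM1, the first enzyme, had 2160.0, 1860.0 and 1940.0 in pbp1Δ and 1180.0, 1325 and 1502 in pab1Δpbp1Δ (log2 fold change -0.59, SE 0.16, adjusted p = 0.00127). HEM4 had 381, 365 and 431 in pbp1Δ and 640.1, 568 and 579 in pab1Δpbp1Δ (log2 fold change 0.59, SE 0.17, adjusted p = 0.00242). None of the 3 overlapped between the mutants, beside 45.9% of all entries without overlap. Of these 3, edgeR called HEM15 alone (adjusted p = 0.0222 for HEM1 and 0.0131 for HEM4). Among 5 other transcription factors, HAP1, the heme-responsive activator, fell, with 352, 405 and 424 normalized counts in pbp1Δ and 229, 246 and 256 in pab1Δpbp1Δ (log2 fold change -0.71, SE 0.18, adjusted p = 0.000787), and SUT1 had the highest log2 fold change, 0.40, without a call.

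Of 13 genes for degradation of sterol enzymes, 1 rose and 2 fell, beside 11.1% higher and 10.2% lower of all entries. HRD1, the ubiquitin ligase that degrades Hmg2, had 418, 409.8 and 400.5 normalized counts in pbp1Δ and 249.7, 291 and 272 in pab1Δpbp1Δ (log2 fold change -0.61, SE 0.17, adjusted p = 0.00262), and SSM4, the ligase that degrades Erg1, had 1340.0, 1373 and 1215 in pbp1Δ and 807, 835 and 833 in pab1Δpbp1Δ (log2 fold change -0.68, SE 0.14, adjusted p = 1.70e-05). UBC7, the ubiquitin-conjugating enzyme of both, had 200.5, 222 and 192 in pbp1Δ and 393, 309 and 382 in pab1Δpbp1Δ (log2 fold change 0.80, SE 0.20, adjusted p = 0.000488). Libraries of the mutants overlapped for none of these 3 genes, beside 45.9% of all entries without overlap. Others of the list were not called, such as UBC6 (log2 fold change 0.28, adjusted p = 0.367), ASI1 (-0.53, adjusted p = 0.158) and ASI3 (-0.34, adjusted p = 0.201). The HRD1 call was lost by edgeR (adjusted p = 0.0105).

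Steryl ester hydrolysis, sterol transport and acetylation gave 4 lower and 1 higher of 23, beside 10.2% lower and 11.1% higher of all entries. PRY1, a secreted sterol-binding protein, had 523, 599 and 576 normalized counts in pbp1Δ and 187, 129 and 181 in pab1Δpbp1Δ (log2 fold change -1.79, SE 0.21, adjusted p = 9.20e-16), and ATF2, which acetylates sterols, had 534, 775 and 669 in pbp1Δ and 255, 346 and 385 in pab1Δpbp1Δ (log2 fold change -1.02, SE 0.22, adjusted p = 5.42e-05). The libraries of the mutants overlapped for neither gene, beside 45.9% of all entries without overlap. The lipid transfer proteins OSH2 (log2 fold change -0.71) and YSP2 (-0.68) fell as well, and SWH1, another oxysterol-binding protein, rose (log2 fold change 1.03, SE 0.26, adjusted p = 0.000546), a call lost by edgeR (adjusted p = 0.0119). HES1 had the highest log2 fold change of the list, 1.68, at 6.10, 8.26 and 3.81 normalized counts in pbp1Δ and 13.9, 22.8 and 22.6 in pab1Δpbp1Δ, without a call.

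Isoprenoid branches gave 0 of 14 calls in pab1Δpbp1Δ against pbp1Δ by DESeq2 or edgeR, beside 21.3% and 16.4% of all entries. Of the 14, 4 had an unadjusted p below 0.05, beside 39.3% of all entries. Log2 fold changes ran from MRS6 (log2 fold change -0.53) to SRT1 (2.23, at 3.49, 4.13 and 0 normalized counts in pbp1Δ and 8.32, 12.5 and 16.2 in pab1Δpbp1Δ). In pbp1Δ against WT, where 0.869% of all entries were called lower, 2 of these 14 genes fell, COX10, which makes heme A from farnesyl diphosphate, with 234, 208 and 222 normalized counts in WT and 115, 130.5 and 141 in pbp1Δ (log2 fold change -0.79, SE 0.18, adjusted p = 0.00258), and MRS6, an escort protein for prenylation, with 1435, 1554 and 1467 in WT and 1052, 1105 and 1124 in pbp1Δ (log2 fold change -0.44, SE 0.10, adjusted p = 0.00150). They were the only DESeq2 calls in that comparison among the 75 genes, and edgeR called neither. The 4 accessory proteins gave 0 calls against pbp1Δ by DESeq2 or edgeR, beside the same 21.3% and 16.4% of all entries. Of the 4, 3 had an unadjusted p below 0.05, beside the same 39.3%. Log2 fold changes ran from CBR1 (log2 fold change -0.40) to ERG29 (0.57). Medians of the log2 fold changes against pbp1Δ were 0.38 for import and mannoproteins, 0.12 for transcription factors, -0.31 for degradation, -0.12 for isoprenoid branches, -0.11 for heme, -0.15 for ester and transport genes and 0.37 for accessory proteins, beside 0.03 for all entries.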

How the data were processed

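Ribosome profiling libraries of 3 WT, 3 pbp1Δ and 3 pab1Δpbp1Δ samples were grouped by the labels. Per the methods, the authors treated lysates with RNase I, collected ribosomes through a sucrose cushion, removed PCR duplicates by random nucleotides in the reads, and removed reads of non-coding RNA. The submitters' processing notes name cutadapt 1.9, UMI-tools, Bowtie 1.0.0, RSEM 1.3.0 and build R64. The authors deposited RSEM expected counts (estimated counts that need not be whole) per isoform (6952 entries) and per gene (6656 entries). The authors deposited FPKM values for the same entries, which were used for levels and as an alternative. Gene names and positions come from RefSeq R64, in which 6259 entries matched a locus tag.

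Expected counts of isoforms were rounded and tested with DESeq2 1.42.0 (R 4.3.3) on the 6 libraries of each pair of strains, without covariates, calling entries at an adjusted p below 0.01 after independent filtering at 0.01, following the study's methods. Normalized counts use size factors over all 9 libraries. Effective lengths came from expected counts and FPKM. Ratios of paralogs were compared with exact permutation tests. Alternatives were edgeR 4.0.16, limma 3.58.1 on log2 FPKM with a pseudocount of 1 or 0.1 for entries with a mean of at least 1 FPKM, TMM factors, library totals, size factors without 232 ribosomal protein entries, a mean count of at least 10, no independent filtering, the gene table, 1 fit on 9 libraries, a replicate block, a threshold of 0.05, and leaving out each library.

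All 30 genes were named, with PAB1, PBP1 and URA3 as label checks and the called, lowest and highest genes of 7 further lists. The members and lists were chosen with earlier results of these data known. Replicates of a strain differed by a chi-square of 5.97 to 43.6 per degree of freedom, so each counted as 1 sample. Same-numbered libraries of pbp1Δ and WT had correlated deviations (r = 0.592, 0.165 and 0.394 over 4463 entries), but pbp1Δ replicate 2 followed WT replicate 3 more (0.267). The labels give the numbers alone, so the replicate block was kept as an alternative and not as the main fit. Totals of 3149040 to 6903587 counts put the limit of 3 counts at 4.35e-05% to 9.53e-05% of a library, and intervals cover counting error only. No sequences are printed.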

Additional observations from a re-analysis of the deposited data

How the results depend on the processing

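Of 510 gene values under alternatives in pab1Δpbp1Δ against pbp1Δ, 470 kept their direction and side of the threshold, 29 lost a call, 5 gained one and 6 changed sign. The figures were 501, 0, 3 and 6 of 510 for pbp1Δ against WT and 453, 15, 10 and 32 of 510 for pab1Δpbp1Δ against WT. In pbp1Δ against WT, only 14 alternatives gave an adjusted p for BTS1, 16 for UPC2 and 15 for ECM22. Those without one were counted as no call. Each sign change was in a gene that was not called, and the causes were not tested. Precision is limited by 3 libraries a strain and, for BTS1, UPC2 and ECM22, by counts near 100 a library. For the 7 further lists edgeR was the only alternative read, and the promoter motif description was not run.

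In pab1Δpbp1Δ against pbp1Δ, pathway calls went from 8 to 3 with edgeR and to 4 with limma at either pseudocount, with 813 (pseudocount 1) and 786 (pseudocount 0.1) of all entries called in place of 1230. They rose to 9 under library totals (8 higher and 1 lower, in place of 6 and 2) and to 10 with all 9 libraries in one fit or at an adjusted p below 0.05 (8 higher and 2 lower), the gained genes under the first 2 settings being ERG10 and ERG27. Leaving out 1 library gave 3 to 8 pathway calls and 756 to 1201 calls over all entries, lowest without pbp1Δ replicate 3 and without pbp1Δ replicate 2. The log2 fold changes of IDI1 and ERG1 turned to 0.029 and 0.032 under library totals, 0.0312 and 0.0317 under limma at a pseudocount of 1, and 0.0313 and 0.0318 at 0.1.

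In pbp1Δ against WT, 1 pathway gene was called with the replicate block (ERG2) and 1 at an adjusted p below 0.05 (ERG27), and 0 to 2 when 1 library was left out. Calls over all entries were 68, and 1 with edgeR, 1 with limma at either pseudocount, 33 with all 9 libraries in one fit, 127 at an adjusted p below 0.05, and 18 to 90 with 1 library left out. Leaving out 1 library gave log2 fold changes of -0.234 to 0.0934 for CYB5, -0.00327 to 0.226 for ERG13, -0.0579 to 0.111 for ERG8 and -0.0653 to 0.0195 for IDI1.

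In pab1Δpbp1Δ against WT, library totals turned the log2 fold changes of IDI1 to 0.00593, BTS1 to 0.0131, ERG6 to 0.0728, ERG5 to 0.0445, ARE1 to 0.0591 and ARE2 to 0.0951. With limma on log2(FPKM + 1) they were 0.00641, 0.000417, 0.0627, 0.0391, 0.0542 and 0.0836, and at a pseudocount of 0.1 they were 0.00643 for IDI1, 0.0628 for ERG6, 0.0393 for ERG5, 0.0550 for ARE1 and 0.0843 for ARE2. Leaving out 1 library gave ranges of -0.364 to 0.0553 for BTS1, -0.163 to 0.0407 for ERG6, -0.103 to 0.174 for ERG3, -0.157 to 0.0187 for ERG5, -0.233 to 0.0580 for ARE1, -0.179 to 0.0900 for ARE2 and -0.0762 to 0.144 for UPC2.

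The differences in log2 ratio of paralogs, with 1 library left out, ran from -0.0453 to 0.162 (HMG1 to HMG2), -0.149 to 0.285 (ARE1 to ARE2) and -0.123 to 0.112 (UPC2 to ECM22) in pab1Δpbp1Δ against pbp1Δ, from -0.315 to 0.120 (ARE1 to ARE2) in pbp1Δ against WT, and from -0.172 to 0.0343 (HMG1 to HMG2) and -0.119 to 0.0950 (ARE1 to ARE2) in pab1Δpbp1Δ against WT.

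For samples with the same number, r was 0.29, 0.385 and -0.118 between pab1Δpbp1Δ and pbp1Δ. Between pab1Δpbp1Δ and WT it was 0.375, 0.119 and 0.0264. A pairing by number was not clear in either comparison. The replicate block gave 8 and 12 pathway calls in these comparisons, in place of 8 and 11, HMG1 being the gene added against WT. In pbp1Δ against WT, ERG2 was the one pathway call that the block changed.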
